A study of Mus musculus with 35 samples.

Results

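The genes described here are 9 astrocyte genes whose products take up, convert or pass on small molecules: the glutamate transporters Slc1a2 (GLT-1) and Slc1a3 (GLAST), the glutamine synthetase gene Glul, the water channel gene Aqp4, the connexin genes Gja1 (connexin 43) and Gjb6 (connexin 30), the folate enzyme gene Aldh1l1, the claudin gene Cldn10 and the glutathione transferase gene Gstm5. They were taken by symbol, as 9 of the 32544 genes in the count tables. The rule uses no measured value, but the members were chosen with earlier results of these data known. Glul, Aldh1l1 and Gstm5 encode enzymes and Cldn10 a junction protein, so the set is wider than transport in the strict sense.

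Astrocytes clear glutamate from the synaptic cleft through GLT-1 and GLAST, and glutamine synthetase converts it to glutamine, which is passed back to neurons. Aquaporin-4 sits mainly in the endfeet on blood vessels and carries water, and connexin 43 and connexin 30 join astrocytes into a network through which potassium and metabolites spread. In epileptic tissue this clearing and buffering is a long-standing subject of study, because extracellular glutamate, potassium and water shape neuronal excitability.

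Hippocampal RNA came from adult male C57BL/6JOlaHsd mice that received kainic acid (KA), a glutamate receptor agonist, in the amygdala to induce status epilepticus, followed by lorazepam, or PBS by the same route. RNA was collected 24 hours or 2 weeks later and sequenced as input RNA or after pulldown with an antibody against N6-methyladenosine (m6A), a methyl mark on mRNA. The m6A libraries were 5 KA and 3 PBS at 24 hours and 6 KA and 5 PBS at 2 weeks, and the input libraries with 100000 or more counts were 3 KA and 1 PBS at 24 hours and 6 KA and 3 PBS at 2 weeks, each library from 1 mouse. The labels describe the pulldown as one for polyA RNA and the input as total RNA, so an m6A library differs from its input in more than the antibody.

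Totals ran from 1652933 to 34564536 counts in the 19 m6A libraries and from 3057578 to 12694434 in the 13 input libraries, and 3 input libraries under 100000 counts were set aside. Levels are given as CPM, the count of a gene scaled to the total of its library, and are compared between libraries only, never between genes. Both libraries of KA mouse 8 at 24 hours stood apart: predicted genes (named Gm and a number) held 26.6% of its m6A and 24.1% of its input counts, against 2.97% to 10.1% in the other m6A and 2.92% to 7.69% in the other input libraries. Mitochondrial genes held 16.4% and 17.4% in that mouse, against at most 17.5% in the other m6A libraries and 6.45% in the other input libraries. The 24-hour values that rest on it are given with and without it. At 2 weeks the m6A library of KA mouse 6 had the highest mitochondrial share of all (17.5%) and 27003 genes with a count, against at most 25717 in the m6A libraries other than those of mice 6 and 8, and its part is given beside the 2-week values. Column names also carry a prefix that splits the m6A libraries into 3 sets, named 3, 4 and 5 here. At 24 hours set 3 held KA mice 8, 67 and 98, set 4 held KA mice 79 and 97 and PBS mice 71 and 73, and set 5 held PBS mouse 1. At 2 weeks set 3 held KA mice 5, 6 and 42, set 4 held PBS mice 50 and 78, and set 5 held KA mice 7, 9 and 21 and PBS mice 2, 3 and 4. The input libraries in use are split as well. Columns of KA mouse 8 at 24 hours and of KA mice 6, 7 and 9 at 2 weeks carry the prefix Input. The others, all PBS input libraries in use among them, carry none.

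The promoters of Gja1, Gjb6 and Aldh1l1 are shown first, since these genes recur in the comparisons at 24 hours. Each window is RefSeq sequence of build GRCm38.p6 from 250 bases before to 50 bases after the gene's start, read 5′ to 3′ on the gene's strand: chr10:56377050-56377349 on the plus strand for Gja1, chr14:57133562-57133861 on the minus strand for Gjb6 and chr6:90550543-90550842 on the plus strand for Aldh1l1. Capitals mark a match to the AP-1 motif TGANTCA.
Gja1: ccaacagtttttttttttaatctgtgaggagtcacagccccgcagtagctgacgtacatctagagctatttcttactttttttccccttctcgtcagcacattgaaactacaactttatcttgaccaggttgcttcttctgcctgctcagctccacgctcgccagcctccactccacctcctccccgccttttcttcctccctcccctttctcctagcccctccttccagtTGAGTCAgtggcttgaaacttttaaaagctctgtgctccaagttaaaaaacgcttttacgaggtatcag
Gjb6: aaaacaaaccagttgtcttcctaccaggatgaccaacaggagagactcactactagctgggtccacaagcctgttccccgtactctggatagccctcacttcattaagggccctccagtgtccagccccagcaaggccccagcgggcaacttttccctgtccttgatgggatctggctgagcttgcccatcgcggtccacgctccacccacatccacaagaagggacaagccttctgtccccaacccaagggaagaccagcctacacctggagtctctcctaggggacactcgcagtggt
Aldh1l1: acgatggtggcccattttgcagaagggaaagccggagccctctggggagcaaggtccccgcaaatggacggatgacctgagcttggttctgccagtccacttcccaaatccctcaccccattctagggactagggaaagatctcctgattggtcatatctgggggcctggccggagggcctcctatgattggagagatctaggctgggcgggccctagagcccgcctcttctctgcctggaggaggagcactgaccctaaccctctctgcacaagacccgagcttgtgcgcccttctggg

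Promoters matched 8 of the 9 genes, not Aqp4, and were searched on both strands for TGANTCA, the STAT motif TTCNNNGAA and the TATA box TATAAA. The AP-1 motif stood at base -19 from the start in Gja1 and at base -176 in Gstm5, and was present in 7.81% of all 32851 promoters of 300 bases. The STAT motif stood at base -96 in Slc1a3 and was present in 8.3% of all promoters. The letters TATAAA were matched on the opposite strand in Slc1a3 at base -161 and, after the start, at base 41 in Gstm5, against 13.6% of all promoters. The windows of Slc1a2, Glul, Gjb6, Aldh1l1 and both starts of Cldn10 held none of these letters. The window of Slc1a2, chr2:102706188-102706487 on the plus strand, is that of a start inside the annotated gene, which begins at base 102658239, so its outer start was not searched. The motifs overlapped at no match, and a match is a string of letters, not a bound site.

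At 24 hours in the m6A libraries the quasi-likelihood test of edgeR put none of the 9 genes under an adjusted P of 0.05, and 1 of the 16470 genes tested (0.00607%). At an unadjusted P under 0.05 there were 3 of the 9 (Gja1, Gjb6 and Glul), beside 5.31% of all genes. The 9 log2 fold changes of KA over PBS had a median of -0.47, beside 0.08 over all genes, and 2 of the 9, Aqp4 and Aldh1l1, were above 0. Other tools called more: DESeq2 called 156 genes (0.947%) and none of the 9, and limma's voom with sample quality weights called 1121 genes (6.81%) and 4 of the 9, Aqp4, Gja1, Aldh1l1 and Cldn10. Over 16 alternatives, those with 1 library left out among them, the adjusted P ran from 0.0165 to 1 for Aqp4, from 0.0202 to 1 for Gja1, from 0.0103 to 1 for Aldh1l1 and from 0.0124 to 1 for Cldn10. In this tissue RNA, fewer astrocytes and less RNA per astrocyte cannot be told apart, and an m6A CPM also depends on the pulldown.

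The connexins were the genes with the smallest P at 24 hours. Gja1, which encodes the main astrocyte gap junction protein, had 136 CPM in PBS mouse 1, 197 in PBS mouse 71 and 246 in PBS mouse 73. In KA mice it had 32.6 CPM in mouse 8, 68.4 in mouse 98, 72.2 in mouse 67, 119.6 in mouse 97 and 140.3 in mouse 79. Every KA library but that of mouse 79 was below every PBS library. The log2 fold change was -1.23 (SE 0.38, 5 against 3, edgeR adjusted P = 0.569). It was -1.05 without mouse 8 (adjusted P = 0.31) and -0.90 within set 4, and voom with quality weights gave -0.97 with an adjusted P of 0.0202.

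Gjb6, which encodes the second astrocyte connexin, was the only member whose m6A groups did not overlap in CPM with all libraries in. No member had all KA libraries above all PBS libraries, beside 2.62% of genes tested. It had 17.8, 18.3 and 19.3 CPM in PBS mice 71, 73 and 1. The KA mice had 7.26 CPM in mouse 98, 9.5 in mouse 8, 10.1 in mouse 67, 12.8 in mouse 97 and 14.9 in mouse 79. All KA libraries were thus below all PBS libraries, as were 1.09% of all genes tested. Gjb6 had a log2 fold change of -0.75 (SE 0.27, edgeR adjusted P = 0.726), -0.76 without mouse 8 and -0.50 within set 4. The lowest of its values rests on 12 counts.

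Glul, the enzyme that makes glutamine from glutamate, had 337, 381 and 417 CPM in PBS mice 71, 1 and 73. In KA mice Glul had 118 CPM in mouse 8, 206 in mouse 79, 257 in mouse 97, 292 in mouse 98 and 344 in mouse 67. Only KA mouse 67 reached the PBS range. Its log2 fold change was -0.70 (SE 0.29, edgeR adjusted P = 0.88), and -0.57 without mouse 8.

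The glutamate transporters showed no such separation. Slc1a2, the transporter that carries most glutamate uptake in the forebrain, had 1833 to 2196 CPM in the PBS mice and 1738 to 2029.7 CPM in 4 of the KA mice, with 413 CPM in mouse 8. Its log2 fold change of -0.46 (SE 0.41, edgeR adjusted P = 0.983) became -0.24 without mouse 8. Slc1a3, the transporter more abundant in cerebellum and in radial glia, had 431, 469 and 592 CPM in PBS mice and from 199 (mouse 8) to 570.4 CPM in KA mice. For Slc1a3 the log2 fold change was -0.36 (SE 0.29, edgeR adjusted P = 0.983), and -0.24 without mouse 8.

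Aqp4 and Aldh1l1 lay on the other side. Aldh1l1, an enzyme of folate metabolism widely used as a general astrocyte marker, had 12.8, 23.6 and 25.3 CPM in PBS mice 1, 71 and 73. In KA mice it had 11.2 CPM in mouse 8, 43.8 in mouse 79, 50 in mouse 67, 50.8 in mouse 98 and 52.1 in mouse 97. Outside mouse 8 the groups did not overlap. Aldh1l1 had a log2 fold change of 0.93 (SE 0.42, edgeR adjusted P = 0.949), 1.15 without mouse 8 (adjusted P = 0.199) and 0.85 within set 4, and voom with quality weights called it (0.97, adjusted P = 0.0103).

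Aqp4 had 122, 164 and 175 CPM in PBS mice 73, 71 and 1. In KA mice Aqp4 had 77.5 CPM in mouse 8, 191 in mouse 98, 302 in mouse 67, 370.4 in mouse 97 and 541 in mouse 79. Again mouse 8 was the 1 KA library not above the PBS libraries, and without it Aqp4 and Aldh1l1 were the 2 members with all KA libraries above all PBS libraries, beside 7.12% of genes tested. Aqp4 had a log2 fold change of 0.86 (SE 0.46, edgeR adjusted P = 0.983) 1.09 without mouse 8 (adjusted P = 0.292) and 0.52 without mouse 79. Within set 4, with 2 KA and 2 PBS libraries, it was 1.56 with an adjusted P of 0.0209 (1 of the 9 genes called, beside 2.11% of genes), and voom with quality weights gave 1.09 with an adjusted P of 0.0165.

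Cldn10 and Gstm5 differed by library set. Cldn10, a tight junction family gene with separate starts for its isoforms, had 4.29 and 5.27 CPM in PBS mice 73 and 71 of set 4 and 11.3 CPM in PBS mouse 1 of set 5. In KA mice it had 1.75 and 2 CPM in mice 79 and 97 of set 4 and 3.34, 4.84 and 6.57 CPM in mice 8, 98 and 67 of set 3. For Cldn10 the log2 fold change was -1.01 (SE 0.53, edgeR adjusted P = 0.983), -1.48 within set 4 (adjusted P = 0.0554) and -1.36 in voom with quality weights (adjusted P = 0.0124). It was -1.25 without mouse 8 and -0.45 without PBS mouse 1. The value of mouse 98 rests on 8 counts, with an exact 95% Poisson interval of 2.09 to 9.54 CPM that covers counting error only.

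Gstm5, a cytosolic glutathione transferase, had 22 and 25.4 CPM in the PBS libraries of set 4 and 77.9 CPM in that of set 5, so the PBS mice differed among themselves by more than the groups did. The KA mice had 16.2 to 46 CPM. For Gstm5 the log2 fold change was -0.47 (SE 0.51, edgeR adjusted P = 0.983), -0.60 without mouse 8 and 0.34 without PBS mouse 1. The Gstm genes are close copies, so reads of Gstm5 may have been split among them. In GRCm38.p6 annotated genes also overlap Slc1a2, Glul, Aldh1l1, Cldn10 and Gstm5, and none of the overlapping genes is listed in the count tables. Aqp4 was not searched for such overlaps. How the counting used strand is not given in the sources used here.

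**Figure D1:**
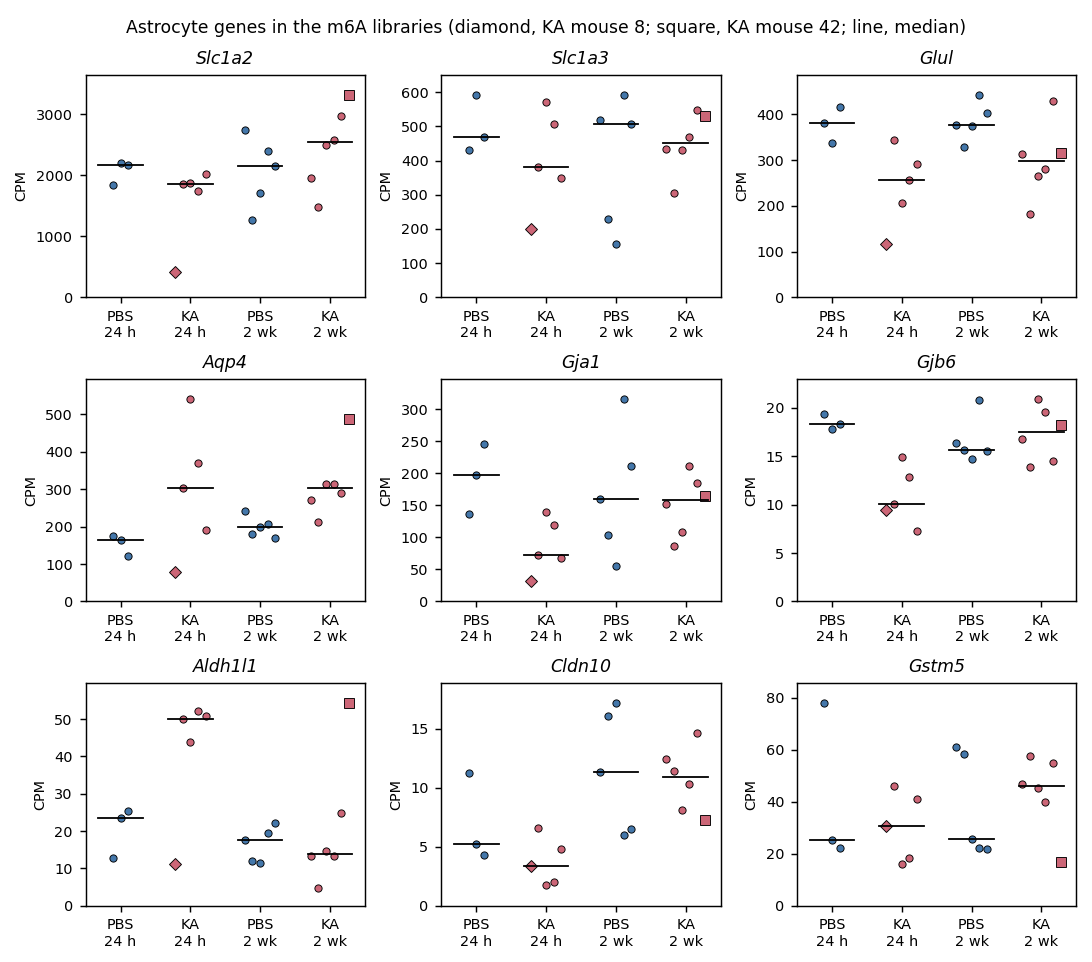
CPM (linear axis from 0) of each of the 9 genes in the m6A libraries, with 1 point per mouse and a line at the group median; n is 3 PBS and 5 KA at 24 hours and 5 PBS and 6 KA at 2 weeks. Mouse 8 (diamond) is the lowest KA library at 24 hours for Slc1a2, Slc1a3, Glul, Aqp4, Gja1 and Aldh1l1, and the KA libraries of Gjb6 at 24 hours, at most 14.9, lie below the PBS libraries, at least 17.8.

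A ratio of 2 genes within a library does not depend on how libraries are scaled, so all 36 pairs of the 9 genes were compared, a step chosen after the values were seen. In the m6A libraries at 24 hours the ratio did not overlap between KA and PBS mice for 8 of the 36 pairs, beside 5.45% of the pairs of 9898 genes with a mean of 10 CPM or more. Aldh1l1 took part in 4 of these pairs, Gja1 in 3 and Gjb6 in 0. The ratio of Gjb6 to Aqp4 was 0.123 in KA mouse 8, within the PBS values of 0.109 to 0.15, and 0.028 to 0.038 in the other KA mice. Without mouse 8 the count was 15 of 36, beside 10.7%. The pairs share genes and are not independent, and no test was made on them.

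Gja1 against Aqp4 was among them. The ratio was 0.778, 1.2 and 2.02 in PBS mice 1, 71 and 73. In KA mice it was 0.24 in mouse 67, 0.26 in mouse 79, 0.323 in mouse 97, 0.358 in mouse 98 and 0.421 in mouse 8. All KA mice were below all PBS mice, mouse 8 and both library sets of the PBS mice included.

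Aldh1l1 against Gja1 was another. That ratio was 0.0945, 0.103 and 0.12 in PBS mice 1, 73 and 71. It was 0.312 in KA mouse 79, 0.343 in mouse 8, 0.435 in mouse 97, 0.692 in mouse 67 and 0.743 in mouse 98. In mouse 8, whose CPM of both genes were the lowest of the KA group, the ratio was thus on the KA side.

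The input libraries gave the same 2 ratios from the same tissue. Gja1 against Aqp4 was 0.954 in PBS mouse 1 and 0.301, 0.357 and 0.382 in KA mice 67, 8 and 98. Aldh1l1 against Gja1 was 0.114 in PBS mouse 1 and 0.612, 0.628 and 0.812 in KA mice 67, 8 and 98. With 1 PBS library the background is high: the ratio did not overlap for 21 of the 36 pairs and for 46.2% of the pairs of 9126 genes with a mean of 10 CPM or more, and without mouse 8 for 35 of the 36 and for 84.1%. Input and m6A libraries of mice 1, 8, 67 and 98 come from the same animals and are not separate observations of the treatment.

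**Figure D2:**
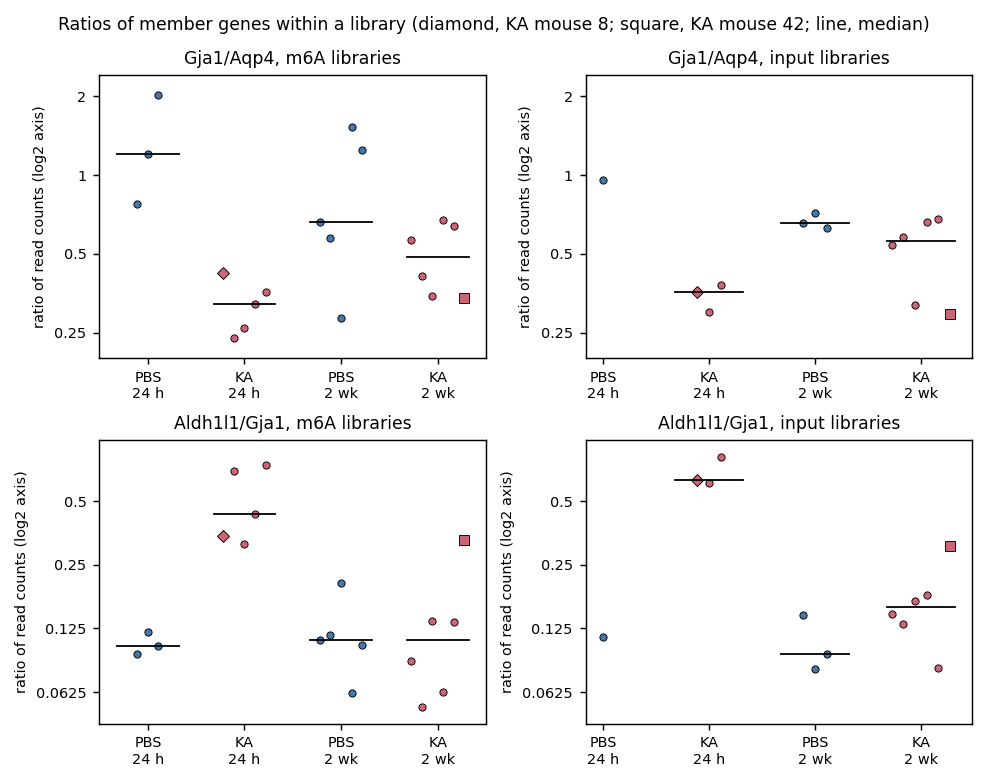
Ratio of the counts of 2 genes within each library (log2 axis), Gja1 over Aqp4 in the upper panels and Aldh1l1 over Gja1 in the lower panels, m6A libraries left and input libraries right, with 1 point per mouse and a line at the median of groups with more than 1 mouse. At 24 hours the KA points, 0.24 to 0.421 in the upper m6A panel, lie apart from the PBS points, 0.778 to 2.02; at 2 weeks the groups overlap in all 4 panels.

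In the input libraries at 24 hours there was 1 PBS library, so the spread was pooled over the 4 input groups and PBS mouse 1 was assumed to vary like the others. In edgeR no member was called, nor was any other of the 17644 genes tested (0%), and 1628 genes (9.23%) had an unadjusted P under 0.05. DESeq2 called 197 genes (1.12%) and none of the 9, and voom with quality weights called 1057 genes (5.99%) and 1 of the 9, Aldh1l1. The members had a median log2 fold change of -0.24, beside 0.27 over all genes.

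Aldh1l1 had 10.3 CPM in PBS mouse 1 and 10.9, 44.7 and 50.9 CPM in KA mice 8, 67 and 98. Its log2 fold change was 2.02 (SE 0.81, edgeR adjusted P = 0.487), 2.43 without mouse 8 (adjusted P = 0.0756) and 2.38 in voom with quality weights (adjusted P = 0.0181), with adjusted P from 0.0181 to 0.991 over 12 alternatives. KA mouse 8 was level with the PBS mouse in CPM, and the other KA mice were above it.

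Cldn10 and Gstm5 were lower in every KA input library than in the PBS library. Cldn10 had 8.67 CPM in PBS mouse 1 and 3.07, 3.23 and 4 CPM in KA mice 98, 8 and 67 (log2 fold change -1.01, SE 0.40, edgeR adjusted P = 0.475). Gstm5 had 59.9 CPM in PBS mouse 1 and 22.9, 24.3 and 25.4 CPM in KA mice 67, 98 and 8 (log2 fold change -0.99, SE 0.39, edgeR adjusted P = 0.473). Glul, Gja1 and Gjb6 were lower in all 3 as well, making 5 of the 9 genes, beside 33.1% of genes tested, and Aldh1l1 was higher in all 3, beside 10.9%. Without mouse 8 the same 5 were lower, beside 56.5% of genes, and 4 (Slc1a2, Slc1a3, Aqp4 and Aldh1l1) were higher, beside 25.6%. With 1 PBS library nothing is read from these counts.

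Gja1 had 90.7 CPM in PBS mouse 1 and 17.3, 62.7 and 73.1 CPM in KA mice 8, 98 and 67, a log2 fold change of -0.58 (SE 0.60, edgeR adjusted P = 0.779) that was -0.19 without mouse 8. Aqp4 had 95.1 CPM in PBS mouse 1 and 48.6, 164 and 243 CPM in KA mice 8, 98 and 67, with a log2 fold change of 0.93 (SE 0.68, edgeR adjusted P = 0.722) that was 1.32 without mouse 8 and 0.44 without mouse 67. Slc1a2 (0.37), Slc1a3 (0.12), Glul (-0.24) and Gjb6 (-0.46) had log2 fold changes within 2 of their standard errors of 0. Without mouse 8 they were 0.78, 0.48, 0.061 and -0.43, and those of Cldn10 and Gstm5 were -1.05 and -1.12.

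At 2 weeks Aqp4 was the member whose KA and PBS libraries lay furthest apart for their spread. In the m6A libraries none of the 9 passed in edgeR, as none of 16157 genes did (0%), with 809 genes (5.01%) under an unadjusted P of 0.05. DESeq2 called 15 genes (0.0928%) and voom with quality weights 2 (0.0124%), none of them a member. The members' median log2 fold change was 0.25, and 6 of the 9 were above 0. The comparison shares no library with that at 24 hours.

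Aqp4 had 169 CPM in PBS mouse 78, 180.4 in mouse 3, 198 in mouse 4, 207 in mouse 50 and 242 in mouse 2. In the KA mice the lowest value was 212 CPM (mouse 6), the median 302 and the highest 488 (mouse 42). Of the KA libraries, that of mouse 6 alone lay within the PBS range, and without it Aqp4 was the 1 member with all KA above all PBS libraries, beside 0.557% of genes tested. The log2 fold change of Aqp4 was 0.72 (SE 0.20, 6 against 5, edgeR adjusted P = 0.875, unadjusted P = 0.00261), 0.57 without mouse 42, 0.78 without mouse 6 and 0.64 within set 5 (SE 0.20).

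In the input libraries at 2 weeks Aqp4 had 138, 156 and 195 CPM in PBS mice 3, 4 and 2. The KA mice had a lowest value of 183 CPM (mouse 9), a median of 221 and a highest of 461 (mouse 42). The groups overlapped, with 3 KA mice (9, 6 and 5) under PBS mouse 2. The log2 fold change of Aqp4 was 0.78 (SE 0.30, 6 against 3, edgeR adjusted P = 0.299), and 0.55 without mouse 42. It ran from 0.55 to 1.11 over 17 alternatives, those with the prefix as a block or with the unprefixed libraries alone among them.

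Ratios in the m6A libraries at 2 weeks that did not overlap between the groups all held Aqp4. In the m6A libraries the ratio of Glul to Aqp4 was 1.56 to 2.38 in PBS and 0.648 to 1.48 in KA mice, and that of Aqp4 to Gjb6 was 9.92 to 14.8 in PBS and 15 to 26.7 in KA mice. These were the 2 pairs of 36 that did not overlap, beside 0.489% of the pairs of 9617 genes with a mean of 10 CPM or more. In the input libraries 2 of the 36 pairs did not overlap, Aqp4 against Cldn10 and Aqp4 against Gstm5. That share is below the 8.05% of the pairs of 9040 such genes, and nothing is read from it.

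Aldh1l1 at 2 weeks depended on KA mouse 42. In the m6A libraries it had 54.3 CPM in that mouse and 4.62 to 24.8 CPM in the other KA mice, beside 11.6 to 22 CPM in the PBS mice. The log2 difference was 0.37 (SE 0.45, edgeR adjusted P = 0.897), -0.18 without mouse 42 and 0.56 without mouse 6, which had the 4.62 CPM. In the input libraries Aldh1l1 had 41.8 CPM in mouse 42, 13.3 to 21.8 CPM in the other KA mice and 7.98, 9.26 and 18.7 CPM in PBS mice 3, 4 and 2. The log2 fold change there was 0.85 (SE 0.39, edgeR adjusted P = 0.359), and 0.54 without mouse 42.

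The connexins and Glul overlapped between groups at 2 weeks. Gja1 ran from 56.1 to 316 CPM in the PBS and from 86.9 to 212 CPM in the KA m6A libraries, a log2 fold change of -0.08 (SE 0.36, edgeR adjusted P = 0.97) that was 0.75 within set 5, which held 3 KA and 3 PBS libraries. Gjb6 ran from 14.7 to 20.8 CPM in PBS and from 13.9 to 20.9 CPM in KA libraries (log2 fold change 0.13, SE 0.17). Glul ran from 329 to 443 CPM in PBS and had a lowest value of 182, a median of 298 and a highest of 429 CPM in KA libraries (log2 fold change -0.31, SE 0.19, edgeR adjusted P = 0.875, and -0.24 without mouse 6, which had the lowest value). Glul was below all PBS libraries in every KA library but that of mouse 21.

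The other members overlapped as well. Slc1a2 ran from 1262 to 2739 CPM in PBS and from 1484 to 3321 CPM in KA m6A libraries, with a log2 fold change of 0.33 (SE 0.24), and Slc1a3 from 155 to 590.5 and from 306 to 549 CPM, with one of 0.25 (SE 0.30). Cldn10 ran from 6.01 to 17.2 CPM in PBS and from 7.26 to 14.7 CPM in KA libraries (log2 fold change -0.01, SE 0.32). Gstm5 ran from 21.8 to 61.2 CPM in PBS and from 16.8 (mouse 42) to 57.5 CPM in KA libraries (log2 fold change 0.30, SE 0.37). The low PBS values of Gstm5 were 22.1 and 21.8 CPM in mice 50 and 78 of set 4 and 25.5 CPM in mouse 4 of set 5, whose other PBS mice, 2 and 3, had 61.2 and 58.4 CPM. Within set 5 its log2 fold change was 0.023, and without mouse 6 it was 0.14.

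In the input libraries at 2 weeks none of the 9 genes passed in edgeR, as none of 13752 genes did (0%), with 1938 genes (14.1%) under an unadjusted P of 0.05, 116 genes (0.844%) called by DESeq2 and 357 (2.6%) by voom with quality weights, none of them a member. Gstm5 was the member whose groups did not overlap: it had 71.1, 71.1 and 82.7 CPM in PBS mice and 22.8 (mouse 42) to 65.1 CPM in KA mice, with a median of 55.9 CPM. All KA libraries were lower, as for 3.8% of genes tested, and the log2 fold change of Gstm5 was -0.51 (SE 0.24, edgeR adjusted P = 0.363). Slc1a2 ran from 1364 to 3182 CPM in PBS and 1943 to 4199 CPM in KA mice (log2 fold change 0.52, SE 0.28). Slc1a3 (0.48, SE 0.31), Gja1 (0.32, SE 0.29), Glul (0.06, SE 0.16), Gjb6 (-0.0045, SE 0.17) and Cldn10 (-0.20, SE 0.24) had log2 fold changes with adjusted P of 0.495 or more. Over 17 alternatives that of Slc1a3 ran from 0.23 to 0.81 and that of Gja1 from 0.061 to 0.62.

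**Figure D3:**
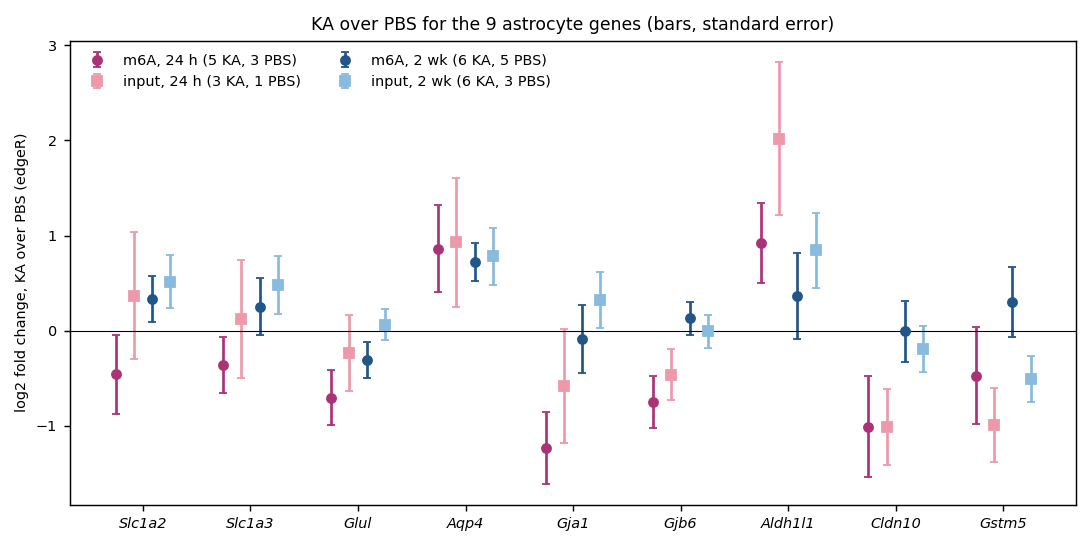
Log2 fold change of KA over PBS from edgeR (bars are the standard error) for the 9 genes, at 24 hours (pink and purple) and 2 weeks (blue), in m6A (circles) and input (squares) libraries, with the number of libraries in the legend. Aqp4 is above 0 in all 4 comparisons, from 0.72 to 0.93 (0.44 to 1.32 with 1 library left out). Aldh1l1 is above 0 in all 4 as well, from 0.37 to 2.02 (-0.18 to 2.43 with 1 library left out). The share of all genes above 0 in all 4 was not counted. The m6A and input comparisons of a time share mice and are not separate observations. Gja1 goes from -1.23 in the m6A libraries at 24 hours to -0.08 at 2 weeks. No value passed an adjusted P of 0.05.

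The change of the KA effect from 24 hours to 2 weeks was tested as an interaction over the 19 m6A libraries. None of the 9 genes passed, and 1 of 17440 genes did (0.00573%), with 2.45% under an unadjusted P of 0.05. DESeq2 called 5 (0.0287%) and voom with quality weights 62 genes (0.356%), none of them a member. Gjb6 had the smallest P of the members: its KA effect was 0.87 higher on the log2 scale at 2 weeks than at 24 hours (SE 0.28, edgeR unadjusted P = 0.00583, adjusted P = 1). For Gja1 the change was 1.14 (SE 0.56) and for Aqp4 -0.14 (SE 0.45). Without mouse 8 these changes were 0.93 for Gjb6, 0.99 for Gja1 and -0.33 for Aqp4, and without KA mouse 79 that of Aqp4 was 0.20.

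Whether the KA effect differed between m6A and input libraries was asked with an interaction term. At 24 hours and at 2 weeks none of the 9 genes and none of 22654 genes passed in edgeR (0% each), with 0.658% and 2.33% under an unadjusted P of 0.05. DESeq2 called 1 gene (0.00441%) and 8 genes (0.0353%) and voom with quality weights 0 and 1 (0.00441%), none of them a member. The 2 assays of a mouse come from the same animal, and with the mouse as a replicate block 1 gene was called at each time, no member. The differences were -0.64 (SE 0.92) for Gja1 at 24 hours and 0.82 (SE 0.52) for Gstm5 at 2 weeks in edgeR, and -0.50 (SE 0.53) and 0.55 (SE 0.26) with the block. Without both libraries of mouse 8 that of Gja1 at 24 hours was -0.86 (SE 0.80).

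In PBS mice at 2 weeks, 5 m6A libraries were set against 3 input libraries. None of the 9 genes passed in edgeR, where 170 of 15128 genes did (1.12%), and 16.9% of genes had an unadjusted P under 0.05. Gstm5 had 21.8, 22.1, 25.5, 58.4 and 61.2 CPM in m6A libraries and 71.1, 71.1 and 82.7 CPM in input libraries, with no overlap, as for 3.13% of genes tested; no member lay wholly higher in m6A, beside 16.7%. Its log2 ratio of m6A over input was -1.25 (SE 0.37, edgeR adjusted P = 0.164), -0.98 with the mouse as a replicate block (adjusted P = 0.173), and it was the 1 member called by DESeq2 (adjusted P = 0.0433, beside 4.88% of genes) and by voom with quality weights (adjusted P = 0.0359, beside 7.86%). Its adjusted P ran from 0.0359 to 0.529 over 13 alternatives. Its 2 lowest m6A libraries are those of set 4, from mice with no input library in use. Glul had a log2 ratio of -0.43 (SE 0.17, edgeR adjusted P = 0.244). Gja1 had a log2 ratio of 0.39 (SE 0.45) that became -0.39 (SE 0.23) with the replicate block, which compares the assays within mice.

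Both libraries were in use for 13 mice, and the log2 ratio of m6A over input CPM can be read mouse by mouse. Glul was lower in m6A than in input in 11 of the 13 mice, with a median log2 ratio of -0.26 and a range from -1.43 to 0.04. Slc1a2 was lower in 11 of the 13 (median -0.22), and Aqp4 and Gjb6 were higher in 12 of the 13 (medians 0.34 and 0.12). Here CPM are scaled by library total alone, and the same counts over all genes were not made. In PBS mice at 2 weeks 16.7% of genes tested lay wholly higher in m6A CPM and 3.13% wholly lower. With the TMM scaling of edgeR the log2 ratios there were 0.05 for Aqp4, -0.16 for Gjb6, -0.43 for Glul and -0.33 for Slc1a2, none of them called. The ratios of Aldh1l1 ranged from -1.66 in KA mouse 6 to 0.60 and those of Gstm5 from -1.48 in PBS mouse 4 to 1.00 in KA mouse 67.

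**Figure D4:**
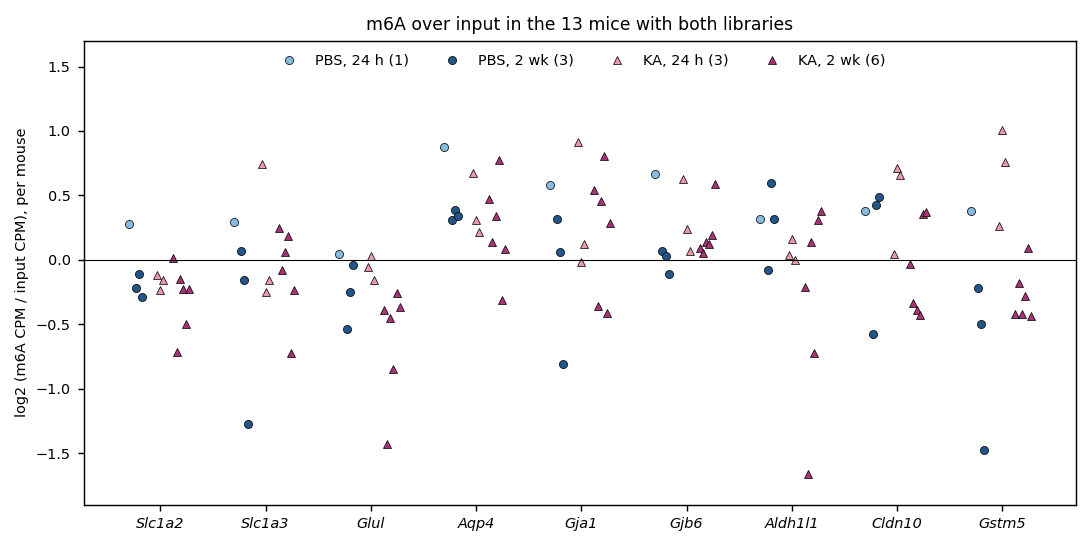
Log2 ratio of m6A over input CPM for the 9 genes, with 1 point per mouse with both libraries (number of mice in the legend) and a line at 0, where the CPM are equal. Aqp4 and Gjb6 lie above 0 in 12 of 13 mice and Glul and Slc1a2 below 0 in 11 of 13, in CPM scaled by library total alone. The points of PBS and KA mice overlap for most genes.

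The letters GGACT, the form of the methylated DRACH context most often cited, were counted in the canonical GENCODE transcript of the 8 genes other than Aqp4. Gstm5 held 2 in 945 bases (2.12 per kilobase, more than 90.9% of 21085 transcripts), Aldh1l1 8 in 4202, Glul 3 in 1704, Gjb6 3 in 2127, Gja1 3 in 4700, Slc1a2 10 in 12025, Slc1a3 3 in 4195 and Cldn10 1 in 2128. The median transcript held 1.01 per kilobase. Gstm5 thus had the highest density of the 8 and, in edgeR, the lowest log2 ratio of m6A over input in PBS mice at 2 weeks. Within mice it was the lowest in PBS mice 3 (-0.50) and 4 (-1.48). In PBS mouse 2 it was -0.22, beside -0.54 for Glul and -0.58 for Cldn10. A link between density and ratio was not tested. The letters show where the context occurs, not whether it is methylated.

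Other genes of astrocytes and of the same pathways were taken as lists. In the m6A libraries at 24 hours no gene of any list passed in edgeR. Of 22 other astrocyte transporters and channels 7 were above 0 (median log2 fold change -0.24), of 22 other astrocyte metabolic and surface genes 8 (median -0.23), of 13 glutamate and glutamine genes 7 (median 0.03), of 10 other connexins and pannexins 6 (median 0.21), of the 10 tested other aquaporins and claudins 7 (median 0.56) and of the 18 tested other glutathione genes 7 (median -0.13). At 2 weeks the medians of these 6 lists lay between -0.19 and 0.18, and again none was called. The median of the 9 members at 24 hours, -0.47, was below that of each of these lists. Without mouse 8 the members' median was -0.57 and those of the 6 lists -0.07, -0.10, 0.13, 0.17, 0.03 and -0.20, in the same order, with 1 gene called, Id4 of the metabolic and surface genes.

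The same lists were measured in the input libraries. At 24 hours 18 of the 22 other astrocyte transporters and channels were above 0 (median 0.45) and 15 of the 22 metabolic and surface genes (median 0.30), beside a median of 0.27 over all genes. Of the other 4 lists, in the order above, 5 of 13 (median -0.09), 8 of 9 (0.73), 9 of 10 (0.67) and 5 of 17 (-0.18) were above 0. At 2 weeks 18 and 19 of the 22 were above 0 (medians 0.27 and 0.32), beside a median of 0.017 over all genes, and the other 4 lists had medians between -0.07 and 0.39. No gene of these lists was called in edgeR at either time with all libraries in. Without mouse 8 the medians at 24 hours were 0.69 for both of the first lists, -0.13, 0.53, 0.19 and -0.21 for the others and 0.061 for the 9 members. Slc17a8 of the glutamate and glutamine genes was then called.

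Markers of reactive astrocytes had higher values in the KA group. All 21 were above 0 in the m6A libraries at 24 hours, with a median log2 fold change of 2.42 and none called in edgeR. Without mouse 8 the median was 2.28, and 10 of the 21 were called, among 45 called of the 16112 genes tested. Their summed level was 399 to 748 CPM in PBS mice, 723 CPM in KA mouse 8 and 1622 to 3623 CPM in the other KA mice. At 2 weeks 18 of 20 tested were above 0 (median 0.90, and 0.66 without mouse 42), and the sum was 3343 CPM in KA mouse 42, 259.7 (mouse 6) to 1217 CPM in the other KA mice and 302 to 614 CPM in PBS mice. In the input libraries 21 of 21 were above 0 at 24 hours (median 2.56), and 12 of 13 tested at 2 weeks (median 1.1). Without mouse 42 the input median at 2 weeks was 0.75, and Gfap was then called in edgeR. The part of these markers in the values of the members was not tested.

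Choroid plexus markers, which mark tissue next to the hippocampus, differed between libraries at 24 hours too: 9 of 9 were above 0 (median 1.19), with sums of 61.8 to 1277 CPM in KA and 81.6 to 939 CPM in PBS libraries. Microglia markers had 9 of 12 above 0 at 24 hours (median 0.26) and 11 of 12 at 2 weeks (median 0.88) in the m6A libraries. Excitatory neuron markers had 3 of 9 above 0 at 24 hours (median -0.41) and 0 of 9 at 2 weeks (median -0.25), and oligodendrocyte markers 4 of 10 (median -0.28) and 2 of 10 (median -0.29). Inhibitory neuron markers had medians of 0.03 and -0.12 and thalamus markers of 0.31 and -0.30. Endothelial markers had medians of 0.34 and 0.08 and blood markers of 0.53 and 0.70. Among input libraries at 24 hours 8 of 8 endothelial markers (median 1.72) and 5 of 5 blood markers (median 1.87) were above 0. At 2 weeks their input medians were 0.49 and 0.29, and those of excitatory neuron and oligodendrocyte markers 0.51 and 0.28. None of these markers was called in edgeR between KA and PBS mice with all libraries in. Without mouse 8, Npy was called in the m6A libraries and Neurod6 in the input libraries at 24 hours. The part of these cells in the values of the 9 genes was not tested.

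The genes whose pattern over the 19 m6A libraries was most like the mean of the 9 scaled members were Asrgl1 (Pearson r = 0.93), Myo6 (0.91), Iqgap2 (0.90), Scg3 (0.90) and Wnk1 (0.88), among 9777 other genes with a mean of 10 CPM or more. Likeness was measured on log2(CPM + 1), and all libraries share the differences in depth and in the share of predicted genes. Without KA mouse 8 these r were 0.82, 0.77, 0.73, 0.78 and 0.59, and the 5 most alike were then Asrgl1, Ocln (0.79), Scg3, Myo6 and Acss1 (0.77), so 3 of the 5 stood in both.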

How the data were processed

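Per the labels, hippocampal RNA was extracted with Trizol, immunoprecipitated for the m6A libraries, and sequenced from libraries of a stranded total RNA kit. The values the authors deposited are unnormalized counts for each gene symbol, in 4 lanes per library. The genome build in the submitters' processing notes is mm10, while for aligner, counter and strandedness the answer is "not given in the sources used here". Lanes of 140 columns were summed to 35 libraries, and 8 columns of mice listed with no input library were not used. Columns of 8 libraries name the assay. For the other 27 it was inferred: a prefix 3, 4 or 5 was read as m6A and its absence as input.

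edgeR 4.0.16 in R 4.3.3 fitted all genes, with TMM scaling, filterByExpr, a robust quasi-likelihood test and Benjamini-Hochberg adjustment at 0.05. Only the groups compared entered a fit, except for the input libraries at 24 hours and the interactions, fitted over all groups. Alternatives were voom with sample quality weights (limma 3.58.1), DESeq2 1.42.0, library size scaling, no filter, no depth minimum, other sets of libraries, library set or mouse as a block, and each library left out. Chosen after seeing the data were the values within a library set, the set as a block in the input and time fits, the removal of mitochondrial and predicted genes, and the removal of both libraries of a mouse. Scripts were tested on simulated data. Ratios, likeness and plots used Python 3.11.15 with numpy 2.4.6, scipy 1.17.1 and pandas 2.3.3, and matplotlib 3.10.9 for the drawing. Promoters are from RefSeq (GRCm38.p6) and transcripts from GENCODE.

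The mouse number pairs libraries because both come from 1 animal by the labels. The deviations of a mouse's input and m6A libraries from their group means correlated between -0.06 and 0.89 over 12 mice, above 0.1 in 10. Replicates are mice. All 9 members were named, with the 5 genes most like them and up to 3 genes per other list past the threshold, of which there were none. The members and lists were chosen with earlier results of these data known. Which libraries were left out of the overlap counts and list medians (KA mice 6, 8 and 42) was chosen after seeing the data.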

Additional observations from a re-analysis of the deposited data

Results flagged for a closer look

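Values of 1 library far from the rest of its group were looked for in 36 combinations of a gene and a group of 4 or more libraries, of which chance gives about 1 in 20, and 6 were found. In the m6A libraries of KA mice at 24 hours, mouse 8 had 413 CPM of Slc1a2 against 1738 to 2029.7 CPM in the other 4 mice, and 11.2 CPM of Aldh1l1 against 43.8 to 52.1 CPM. Predicted genes held 26.6% of that library's counts. In KA mice at 2 weeks, mouse 42 had 488 CPM of Aqp4 in its m6A library against 212 to 314 CPM in the others, and 41.8 CPM of Aldh1l1 in its input library against 13.3 to 21.8 CPM. KA mouse 21 had 246 CPM of Gja1 in its input library at 2 weeks against 78.7 to 136 CPM. PBS mouse 50 had 20.8 CPM of Gjb6 in its m6A library at 2 weeks against 14.7 to 16.3 CPM. The causes were not tested.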

How the results depend on the processing

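Of 339 member values recomputed under other settings, 320 kept their direction and side of the threshold, 8 passed it and 11 changed sign. With 1 library left out 373 of 391 kept both and 18 changed sign. These values covered all members for KA against PBS. For the change between the times they covered Gja1, Gjb6 and Aqp4 alone. For the difference between assays they covered Gja1 at 24 hours and Gstm5 at 2 weeks, and for m6A over input Gstm5, Glul and Gja1. The counts of genes called varied more, and the causes were not tested.

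For KA against PBS in the m6A libraries at 24 hours, 1 gene was called, and 156 by DESeq2, 3 with library size scaling, 22 with no filter, 1121 by voom with quality weights (4 members), 31 with all m6A libraries in 1 fit, 0 with the library set as a block, 356 within set 4 (1 member) and 0 to 45 with 1 library left out, 45 without KA mouse 8. At 2 weeks none was called, and 15 by DESeq2, 2 with no filter, 2 by voom, 1 in the fit of all libraries and 0 to 1 with 1 left out. In input at 24 hours none was called, and 197 by DESeq2, 1 with library size scaling, 3 with no filter, 1057 by voom (1 member), 8 with no depth minimum, 2 with the set as a block, 342 within the libraries whose columns carry no prefix, 1 without mitochondrial and predicted genes and 1 to 180 with 1 left out, 180 without KA mouse 8. In input at 2 weeks none was called, and 116 by DESeq2, 4 with no filter, 357 by voom and 0 to 1 with 1 left out. For the change between the times, 1 gene was called, and 5 by DESeq2, 62 by voom, 2 with the set as a block and 1 to 1 with 1 left out.

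For the difference between m6A and input effects none was called, and DESeq2 called 1 at 24 hours and 8 at 2 weeks, voom 1 at 2 weeks, and the replicate block 1 at each. For m6A over input in PBS mice, 170 were called, and 738 by DESeq2 (1 member), 1189 by voom (1 member), 343 with library size scaling (248 higher and 95 lower in m6A, against 56 and 114), 49 with the replicate block and 20 to 417 with 1 left out. The block, which pairs the libraries of a mouse, turned Gja1 to -0.39 there and changed no call of a member.

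Log2 values that changed sign were, in m6A at 24 hours, Gstm5 (-0.76 to 0.34 with 1 library left out, above 0 without PBS mouse 1). In m6A at 2 weeks they were Gja1 (0.064 by voom, 0.73 with the set as a block, 0.75 within set 5, -0.32 to 0.24 with 1 left out), Aldh1l1 (-0.072 by voom, -0.18 to 0.56), Cldn10 (0.00816 without mitochondrial and predicted genes, -0.18 to 0.18) and Gstm5 (-0.038 by voom). In input at 24 hours they were Slc1a3 (-0.14 with library size scaling, -0.20 to 0.48) and Glul (0.030 by voom, 0.060 within the libraries with no prefix, -0.44 to 0.061), and at 2 weeks Glul (-0.032 to 0.18) and Gjb6 (0.016 by voom, -0.069 to 0.042). The change of the KA effect on Aqp4 between the times was -0.33 to 0.20, above 0 without KA mouse 79. Outside the values counted above, ranges over all alternatives also held 0. For the difference between assays they did at 24 hours for Aqp4 (-0.74 to 0.48), Cldn10 (-0.29 to 0.47) and Gjb6. At 2 weeks they did for Gja1 (-0.66 to 0.46), Slc1a3 (-0.45 to 0.46), Slc1a2, Aqp4 and Cldn10. For m6A over input in PBS mice they did for Slc1a3, Aqp4 and Gjb6, and for the change between the times for Gstm5. Leaving out the PBS input library at 24 hours leaves no comparison. Depth limits Cldn10 and Gjb6 most, with as few as 8 and 12 counts in a library.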
